A study of Homo sapiens with 35 samples.

Results

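The effect of IR alone was measured in SUM149 cells, an established human line of inflammatory breast cancer without hormone receptors. The arrays were chosen by their titles: IR, polysome (3 arrays) against DMSO, polysome (3 arrays), and IR, total (3 arrays) against DMSO, total (3 arrays), which is 12 of the 35 arrays of the series. The remaining 23 arrays hold groups that received the mTOR inhibitors RAD001 or PP242, with or without IR. IR is taken to mean ionizing radiation, since no label spells it out, and neither its dose nor the time after it is stated. Nor is it stated whether the IR cells also received the solvent DMSO. All 12 arrays come from 1 cell line without an inhibitor. The titles call the replicates biological, but whether each was its own culture is not stated. Hence the p-values reflect the spread among these arrays alone, and that spread may be technical.

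Ionizing radiation breaks DNA, and cells answer by halting the cycle, repairing the breaks and, in many cell types, by transcribing damage-induced genes such as the cell cycle inhibitor CDKN1A. Polysome RNA is the pool bound to several ribosomes at once, so a message can differ there because its amount or its loading on ribosomes differs. Translational efficiency here is the IR minus DMSO difference in polysome RNA less that in total RNA. Levels are the deposited log2 values of 22336 genes, so a difference of 1 is 2-fold. In total RNA a lower share of cells that hold a message and less of it per cell cannot be told apart, and the same holds for polysome RNA.

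The arrays resembled each other closely. The mean correlation of an array with the other arrays of its fraction was 0.99492 to 0.99594 in polysome RNA and 0.9923 to 0.99379 in total RNA, except for replicate 2 of DMSO, total, at 0.98903. Several list medians and gene differences in total RNA move or change sign without that array, and the value without it is given for those where it matters most. The 15 measured epithelial and breast cancer markers had a median level of 12.43, with single levels from 3.52 to 16.19. EPCAM, an epithelial adhesion protein, stood at 14.69 to 14.90 on the 3 IR, polysome arrays and at 14.71 to 14.85 on the 3 DMSO, polysome arrays. The median levels of 13 fibroblast, 14 leukocyte and 12 endothelial markers were 4.23, 3.98 and 4.21, below the median of all genes at 5.14. The highest single marker of these 3 lists stood at 9.54, 14.2 and 9.75. MALAT1, a noncoding RNA held in the nucleus, stood at 9.59 to 10.14 on the IR, polysome arrays and at 10.27 to 11.13 on the DMSO, polysome arrays. In total RNA it stood at 13.92 to 14.44 with IR and at 13.92 to 14.31 with DMSO.

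The first question was how far IR alone moved any message. No gene passed an adjusted p under 0.05 (limma, Benjamini-Hochberg over 22336 genes) in polysome RNA, in total RNA, in translational efficiency or in the mean of both fractions, which is 0% of genes in each. The smallest adjusted p was 0.9997 in polysome RNA and 0.9999 in total RNA. At an unadjusted p under 0.05, 551 genes were counted in polysome RNA (262 higher and 289 lower with IR), 424 in total RNA (146 higher and 278 lower), 557 in translational efficiency and 382 in the mean of both fractions. These are 2.47%, 1.9%, 2.49% and 1.71% of the genes, fewer than the 5% that the threshold alone would give. Among the 9920 protein-coding genes at or above the median level, 216 were counted in polysome RNA (55 higher and 161 lower) and 40 in total RNA (25 higher and 15 lower). The standard deviation of the difference over genes was 0.15 in polysome RNA and 0.13 in total RNA.

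Few messages differed by much in either direction. In polysome RNA 34 genes were more than 1.5-fold higher with IR and 32 more than 1.5-fold lower; in total RNA there were 21 and 26. Differences beyond 2-fold were seen for 5 genes in polysome RNA, all lower with IR: the linker histone genes H1-3 and H1-1, the antibody gene segment IGHD3-10, and the microRNA genes MIR1264 and MIR2054. In total RNA there were 2, MIR1264 and MIR1302-3, also lower with IR. These genes were named after their values were seen, and none passed the adjusted threshold. The log2 difference of MIR1264 was -1.01 in polysome RNA and -1.02 in total RNA (SE 0.37 each), and that of MIR2054 was -1.38 with an SE of 0.84.

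**Figure D1:**
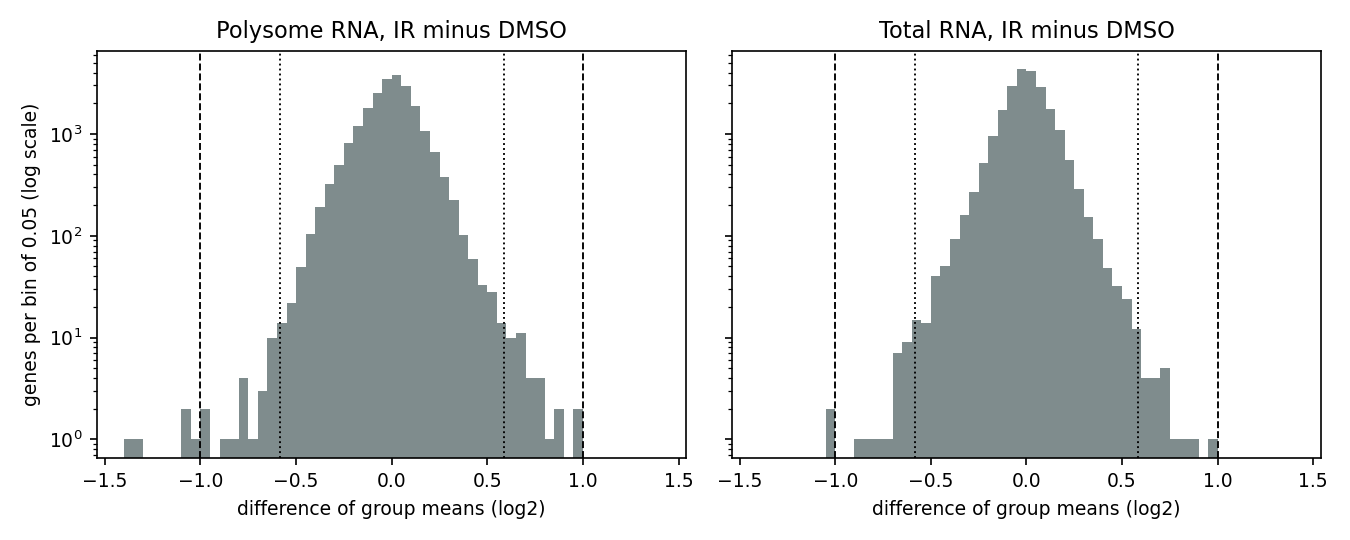
Histograms of the IR minus DMSO difference of group means (log2, x axis) for 22336 genes in polysome RNA (left) and total RNA (right), as genes per bin on a log axis. Dotted lines mark 1.5-fold and dashed lines 2-fold; 5 genes in polysome RNA and 2 in total RNA lie beyond 2-fold.

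The intervals bound what IR alone could have changed. The 95% interval of a gene's difference reached 0.29 (log2) either side of the estimate for the median gene in each fraction, and 0.41 in translational efficiency. It lay wholly within 2-fold up or down for 21767 genes (97.5%) in polysome RNA, for 21857 (97.9%) in total RNA, for 20174 (90.3%) in translational efficiency and for 22185 (99.3%) in the mean of both fractions. It lay within 1.5-fold for 17930 genes (80.3%) in polysome RNA and for 18711 (83.8%) in total RNA. The fit took polysome and total arrays of the same number as independent. If they share a culture, the intervals for the mean of both fractions are too narrow. When all genes were bounded at once, by Bonferroni-widened intervals, 6175 genes (27.6%) stayed within 2-fold in polysome RNA and 6270 (28.1%) in total RNA. A gene with the median spread would have needed a 2.27-fold difference to pass as the best gene of either fraction. So 1.5-fold effects on single genes were below what 3 arrays a group could call, and the data do not show that they are absent.

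Messages were also sorted by whether the 3 IR and 3 DMSO arrays overlapped. In polysome RNA 1036 genes (4.64%) were higher on every IR array than on any DMSO array, and 936 (4.19%) were lower. In total RNA 318 genes (1.42%) were higher and 600 (2.69%) lower. These shares are the background for the counts of members below. In polysome RNA the direction went with level: of the genes higher without overlap, 492 lay in the lowest quartile of levels and 174 in the highest, while of those lower, 122 lay in the lowest quartile and 311 in the highest. The part of level in the single values below was not tested.

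The damage-induced genes, which many cell types transcribe more after irradiation, mostly overlapped between IR and DMSO, as most genes did. CDKN1A, which encodes the cyclin-dependent kinase inhibitor p21, stood at 7.53, 7.78 and 7.65 on the IR, polysome arrays and at 8.11, 8.06 and 7.48 on the DMSO, polysome arrays. Its total RNA levels were 7.89, 7.88 and 7.72 with IR and 8.05, 7.64 and 7.59 with DMSO. The groups overlapped in both fractions. The fold difference was 0.854 in polysome RNA (95% interval 0.657 to 1.11) and 1.05 in total RNA (0.807 to 1.37), so a 1.5-fold rise of CDKN1A lay outside both intervals.

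MDM2, a ubiquitin ligase that is commonly induced by DNA damage, stood at 9.92, 9.92 and 10.32 on the IR, polysome arrays and at 10.39, 10.28 and 10.22 on the DMSO, polysome arrays. The total RNA levels were 10.97, 10.76 and 10.47 with IR and 10.65, 10.47 and 10.64 with DMSO. The groups overlapped in both fractions. Its fold difference was 0.844 (0.679 to 1.05) in polysome RNA and 1.11 (0.892 to 1.38) in total RNA. The secreted stress factor GDF15 differed by 0.01 (95% interval -0.28 to 0.29, log2) in polysome RNA and by -0.06 (-0.34 to 0.22) in total RNA. The death receptor FAS differed by -0.14 (-0.31 to 0.04) and -0.10 (-0.27 to 0.08), and the growth arrest gene GADD45A by -0.10 (-0.47 to 0.27) and 0.20 (-0.16 to 0.57). The stress sensor SESN1 was higher without overlap in total RNA, at 5.16, 5.22 and 5.22 with IR and at 5.01, 5.11 and 5.03 with DMSO, and differed by 0.15 (-0.08 to 0.38).

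The list of damage-induced genes used here holds target genes of the transcription factor p53 and not every gene that damage can induce. Of its 33 measured genes, 14 lay above 0 in polysome RNA with a median difference of -0.015. In total RNA 25 lay above 0, with a median of 0.08. Over all genes, 11373 of 22336 lay above 0 in polysome RNA (median 0.003) and 11206 in total RNA (median 0.001). Without DMSO, total replicate 2 the total RNA median of the damage-induced genes was 0.01, as it was without IR, total replicate 2. None of the 33 passed. In polysome RNA the phosphatase gene PPM1D was higher without overlap, at 8.74, 8.38 and 8.51 with IR and at 8.30, 8.21 and 8.32 with DMSO. There 2 of the 33 were lower without overlap, FAS among them. Over all genes 4.64% were higher and 4.19% lower without overlap in that fraction. The interval lay within 2-fold for 31 of the 33 genes in polysome RNA and for 32 in total RNA.

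**Figure D2:**
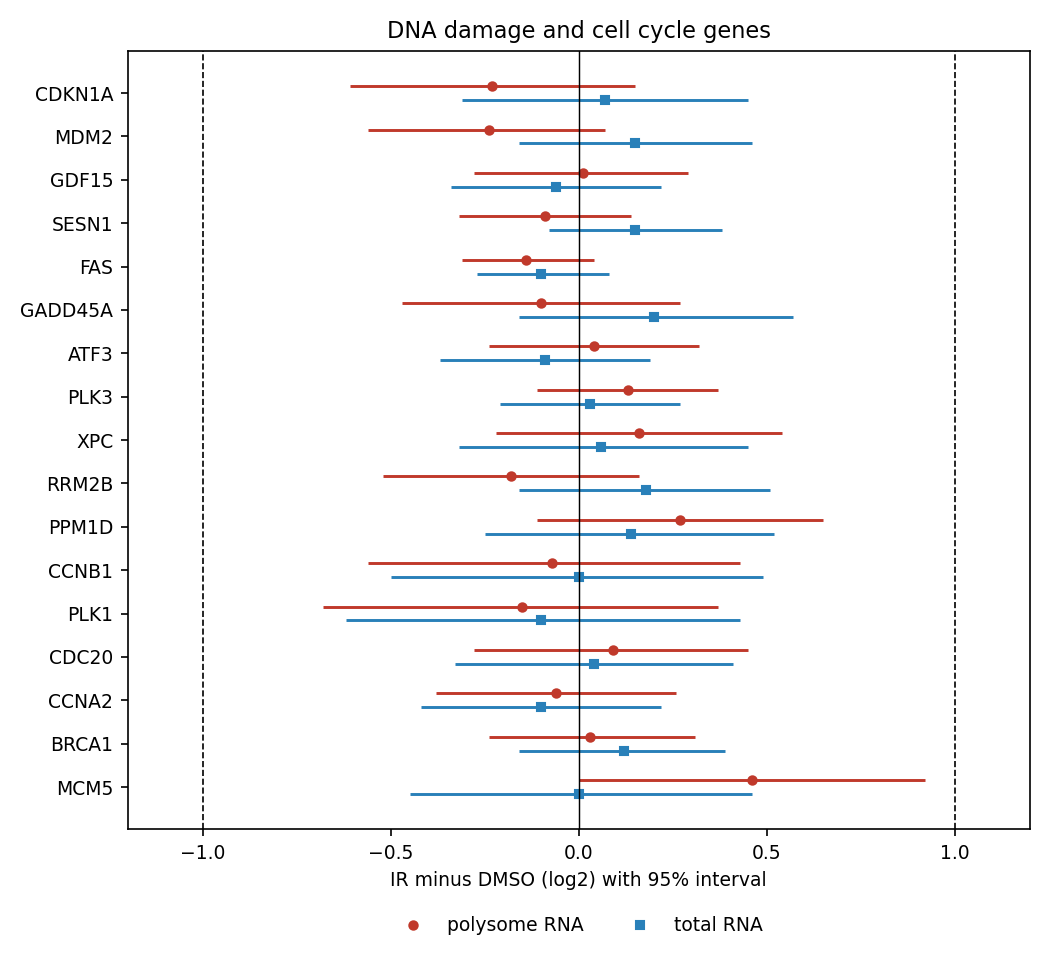
IR minus DMSO difference (log2, x axis) with its 95% interval for 17 DNA damage and cell cycle genes, in polysome RNA (circles) and total RNA (squares); dashed lines mark 2-fold. H1-3 is not plotted here. Every interval lies inside the dashed lines, and that of MCM5 in polysome RNA runs from 0.00 to 0.92.

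The largest difference of a protein-coding gene in polysome RNA was that of the linker histone gene H1-3. Linker histones bind DNA between nucleosomes, and their genes, like those of the core histones, are transcribed mainly during DNA synthesis into messages that mostly lack a poly(A) tail. H1-3 stood at 4.63, 4.84 and 4.67 on the IR, polysome arrays and at 5.85, 5.97 and 6.28 on the DMSO, polysome arrays. The groups did not overlap, and the IR values lay below the median level of all genes. The difference was -1.32 ± 0.33 (SE; fold 0.401, 95% interval 0.242 to 0.665), and the adjusted p was 0.9997 (limma). The total RNA levels of H1-3 stood at 4.72, 4.27 and 5.44 with IR and at 5.18, 4.93 and 6.22 with DMSO. The groups overlapped there, and the difference was -0.63 (-1.36 to 0.10).

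H1-1, a second linker histone gene, stood at 6.67, 7.61 and 7.35 on the IR, polysome arrays and at 8.23, 8.39 and 8.26 on the DMSO, polysome arrays. These groups did not overlap, and the difference was -1.08 ± 0.42 (SE). In total RNA it stood at 7.70, 7.26 and 8.98 with IR and at 7.84, 7.79 and 8.89 with DMSO, a difference of -0.19 with full overlap. The other linker histone genes differed in polysome RNA by -0.57 (H1-4), -0.45 (H1-2) and -0.36 (H1-5), each with overlap. In total RNA these 3 differed by -0.25, 0.01 and -0.06.

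The promoters of the linker histone genes are shown because these genes gave the largest differences and share an element that other genes seldom have, the H1 box AAACACA, which lies upstream of a CCAAT box and a TATA box. In these 250 bases before the start (RefSeq, GRCh38.p14, minus strand, both genes on chromosome 6) capitals mark these boxes on either strand, with TATAAA searched for the last.
H1-3, chr6:26234988-26235237: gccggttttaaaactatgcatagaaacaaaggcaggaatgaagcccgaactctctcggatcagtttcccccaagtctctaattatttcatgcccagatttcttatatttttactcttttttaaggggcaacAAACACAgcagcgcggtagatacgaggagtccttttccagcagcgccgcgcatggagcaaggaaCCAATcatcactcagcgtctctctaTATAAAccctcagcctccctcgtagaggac
H1-1, chr6:26017788-26018037: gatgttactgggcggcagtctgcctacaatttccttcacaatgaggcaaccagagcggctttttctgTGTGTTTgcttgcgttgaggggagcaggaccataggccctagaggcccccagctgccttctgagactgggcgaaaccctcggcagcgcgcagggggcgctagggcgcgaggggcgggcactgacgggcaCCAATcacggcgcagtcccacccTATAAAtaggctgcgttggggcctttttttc
In H1-3 the H1 box starts 119 bases before the gene start, in H1-1 it lies on the other strand, as TGTGTTT, 183 bases before it. All 5 measured linker histone genes held a match, and so 5 of 23 histone promoters in the table (21.7%), against 4.95% of 27305 promoters of the same length. CCAAT was found in 23 of 23 histone promoters (33.0% of all promoters) and TATAAA in 17 of 23 (73.9%, against 11.1% of all). A match describes the letters and shows no binding.

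The histone genes as a group lay lower in polysome RNA. All 25 measured replication-dependent histone genes lay below 0 there, with a median of -0.28, while in total RNA 16 of 25 lay above 0, with a median of 0.02. None passed the test. In polysome RNA 5 of the 25 were lower without overlap, beside 4.19% of all genes: H1-1, H1-3, H2BC3, H2BC5 and H2BC17. The histone median in polysome RNA ran from -0.40 to -0.19 when each array was left out in turn, the lowest without IR, polysome replicate 3. In total RNA it ran from -0.16, without DMSO, total replicate 2, to 0.19, without IR, total replicate 2, so it had no settled sign. Histone genes are near-identical in sequence, so probe sets within the family may share signal and their common sign is not 25 separate measurements. Messages without a poly(A) tail are measured only as far as the amplification takes them up, which is not given in the sources used here.

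**Figure D3:**
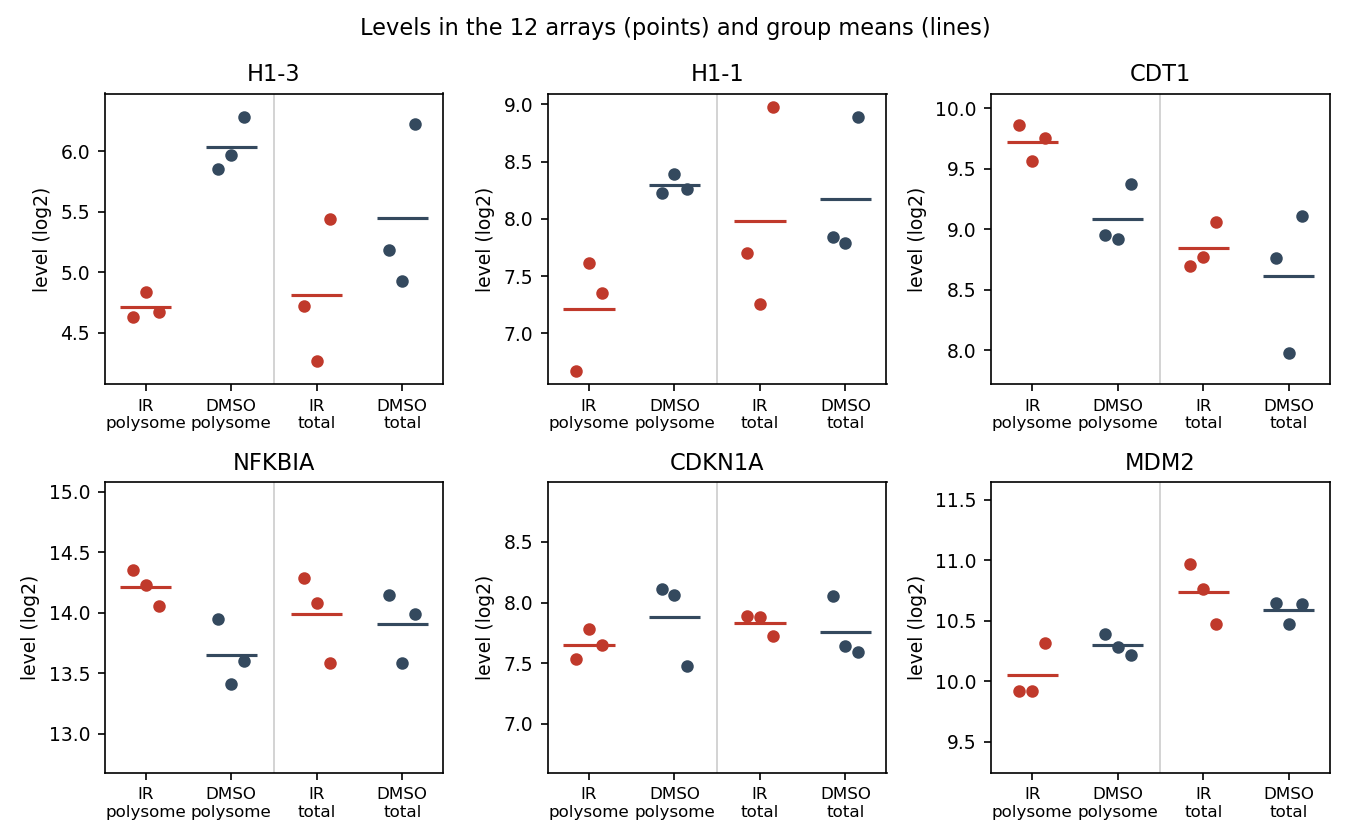
Levels (log2, y axis) of H1-3, H1-1, CDT1, NFKBIA, CDKN1A and MDM2 on the 12 arrays: points are arrays, lines are group means, red is IR and dark blue is DMSO, in polysome RNA (left of each panel) and total RNA (right). H1-3, H1-1, CDT1 and NFKBIA do not overlap in polysome RNA and overlap in total RNA; CDKN1A and MDM2 overlap in both.

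Genes of DNA replication lay mostly higher. CDT1, which loads the replicative helicase at origins, stood at 9.86, 9.56 and 9.75 on the IR, polysome arrays and at 8.95, 8.92 and 9.37 on the DMSO, polysome arrays. The groups did not overlap, and the difference was 0.65 (95% interval 0.12 to 1.18). In total RNA CDT1 stood at 8.70, 8.77 and 9.06 with IR and at 8.76, 7.98 and 9.11 with DMSO, a difference of 0.22 with overlap, and of -0.09 without DMSO, total replicate 2. CDC6, which works with CDT1 at origins, differed by 0.65 (0.01 to 1.29) in the polysome fraction, the helicase subunit MCM5 by 0.46 (0.00 to 0.92), and the histone chaperone subunit CHAF1B by 0.56 (0.09 to 1.02). CHAF1B stood at 11.68, 11.38 and 11.72 on the IR, polysome arrays and at 10.92, 10.91 and 11.28 on the DMSO, polysome arrays, without overlap.

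Of 51 measured replication genes, 38 lay above 0 in polysome RNA (median 0.18) and 43 in total RNA (median 0.09), and none passed. In polysome RNA 5 were higher without overlap (MCM2, CDT1, POLD3, RRM2 and CHAF1B), beside 4.64% of all genes, and the kinase subunit gene DBF4 was lower without overlap. The polysome median ran from 0.15 to 0.21 when each array was left out in turn. The total RNA median was -0.08 without DMSO, total replicate 2, so its direction rested on that array. On that array CDT1, CDC6 and the origin subunit ORC1 stood at 7.98, 10.89 and 8.32, below the other 5 total RNA arrays.

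The promoter of CDT1 is shown because E2F factors drive many replication genes at the start of DNA synthesis; here capitals mark a match of TTTCGCGC, TTTGGCGC or TTTCCCGC on either strand (RefSeq, GRCh38.p14, plus strand, 250 bases before the start).
CDT1, chr16:88803539-88803788: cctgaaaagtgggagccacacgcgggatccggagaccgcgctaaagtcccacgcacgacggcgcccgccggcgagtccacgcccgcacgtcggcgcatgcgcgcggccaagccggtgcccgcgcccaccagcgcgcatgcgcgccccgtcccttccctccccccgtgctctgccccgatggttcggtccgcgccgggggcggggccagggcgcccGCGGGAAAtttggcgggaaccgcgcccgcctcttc
The match, GCGGGAAA, starts 35 bases before the gene start. Such a match was found in 13 of 44 replication gene promoters (29.5%) and in 2.38% of all 27305 promoters; among histone promoters it was found in 8 of 23 (34.8%), whose genes lay on the other side of 0 in polysome RNA.

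The NF-kB pathway can be activated by DNA breaks and drives inflammatory messages. Of its genes NFKBIA was named after its values were seen, for its rise without overlap in polysome RNA. The largest difference of the list there was 0.679, in another gene. NFKBIA encodes the inhibitor IkB alpha, itself an NF-kB target that shuts the pathway off again. It stood at 14.35, 14.23 and 14.06 on the IR, polysome arrays and at 13.95, 13.41 and 13.60 on the DMSO, polysome arrays. The groups did not overlap, and the difference was 0.56 (95% interval 0.11 to 1.01, fold 1.47). Its total RNA levels were 14.29, 14.08 and 13.59 with IR and 14.15, 13.59 and 13.99 with DMSO, a difference of 0.08 with overlap, and of -0.08 without DMSO, total replicate 2.

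Of 32 measured members of the pathway, 24 lay above 0 in polysome RNA (median 0.12) and 25 in total RNA (median 0.09), and none passed. Only NFKBIA and the subunit genes REL and NFKB2 were higher without overlap in polysome RNA, beside 4.64% of all genes. VCAM1, a cell adhesion gene, was lower without overlap in total RNA, beside 2.69% of all genes. The polysome median ran from 0.01, without DMSO, polysome replicate 3, to 0.26, without DMSO, polysome replicate 1, and the total RNA median from -0.06, without IR, total replicate 1, to 0.21. The secreted factors varied most between replicates. The chemokine CXCL8 stood at 11.55, 10.65 and 10.33 on the IR, polysome arrays and at 12.10, 10.23 and 9.38 on the DMSO, polysome arrays, and its interval ran from -1.34 to 1.88. The cytokine TNF stood at 9.31, 7.61 and 6.56 on the IR, total arrays and at 8.19, 6.43 and 6.37 on the DMSO, total arrays, with an interval from -0.66 to 2.32. For such genes a 2-fold effect lay within the spread of the replicates.

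Mitotic genes lay slightly lower in polysome RNA and near 0 in total RNA. PLK1, a kinase of mitotic entry, stood at 14.80, 14.50 and 13.83 on the IR, polysome arrays and at 14.56, 14.51 and 14.50 on the DMSO, polysome arrays. Its difference was -0.15 (-0.68 to 0.37) in polysome RNA and -0.10 (-0.62 to 0.43) in total RNA. The cyclin gene CCNB1 differed by -0.07 (-0.56 to 0.43) in polysome RNA, and by 0.00 (-0.50 to 0.49) in total RNA, CDC20 by 0.09 and 0.04, and CCNA2 by -0.06 and -0.10. CENPA, the histone variant of centromeres, was lower without overlap in polysome RNA, at 8.52, 8.56 and 8.52 with IR and at 9.31, 9.24 and 8.77 with DMSO, a difference of -0.57 (-0.89 to -0.25). In total RNA it differed by -0.05.

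Of 50 measured mitotic genes, 12 lay above 0 in polysome RNA (median -0.10) and 21 in total RNA (median -0.01), and none passed. The polysome median was -0.21 without IR, polysome replicate 1 and -0.04 without IR, polysome replicate 3. In polysome RNA 7 were lower without overlap, among them TOP2A, ASPM and MKI67, beside 4.19% of all genes. All 50 intervals lay within 2-fold in both fractions, so a 2-fold difference of any of these genes lay outside its own interval. FAM72D and FAM72C, near-identical copies of a gene expressed with the cell cycle, were also lower in polysome RNA, by 0.97 and 0.86 on the log2 scale. FAM72D stood at 10.52, 10.63 and 10.68 on the IR, polysome arrays and at 11.63, 11.66 and 11.44 on the DMSO, polysome arrays, and in total RNA at 12.18, 11.20 and 11.22 with IR and at 11.42, 12.43 and 11.60 with DMSO. The copies can share probe signal and count as 1 observation.

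Genes of checkpoint signalling and repair had medians near 0. The medians of 37 checkpoint genes were 0.01 in polysome RNA and 0.09 in total RNA, those of 35 homologous recombination and Fanconi anaemia genes 0.03 and 0.12, and those of 41 end joining and excision repair genes 0.05 and 0.04. Without DMSO, total replicate 2 the total RNA medians of these 3 lists were -0.001, 0.017 and -0.019, so they rested on that array. All 35 recombination genes and all 41 end joining genes had intervals within 2-fold in both fractions. The 37 checkpoint genes differed by -0.391 to 0.443 in polysome RNA. There 4 of them were higher and 2 lower without overlap. Of the recombination genes 2 were higher and 0 lower, and of the end joining genes 2 and 2. Over all genes these shares were 4.64% and 4.19%. BRCA1, which directs recombination, differed by 0.03 (-0.24 to 0.31) in polysome RNA and 0.12 (-0.16 to 0.39) in total RNA. WEE1, the kinase that holds cells before mitosis, was lower without overlap in polysome RNA, at 8.55, 8.45 and 8.58 with IR and at 8.86, 8.73 and 8.90 with DMSO, and differed by -0.30 (-0.59 to -0.01). BLM, a helicase of recombination, was higher without overlap, at 9.30, 9.28 and 9.58 with IR and at 8.80, 9.12 and 9.22 with DMSO, by 0.34 (0.02 to 0.65). Among 29 apoptosis regulators the medians were -0.075 and 0.02. In polysome RNA 5 were lower without overlap, beside 4.19% of all genes, and 1 was higher. One of these was HRK, a death-promoting BCL2 relative, at 7.20, 7.02 and 7.01 with IR and at 7.40, 7.27 and 7.24 with DMSO.

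Ribosomal protein and oxidative phosphorylation messages lay slightly lower in polysome RNA and near 0 in total RNA. Of 48 cytosolic ribosomal protein genes, 3 lay above 0 in polysome RNA (median -0.13) and 24 in total RNA (median 0.00). Of 50 oxidative phosphorylation genes, 12 lay above 0 in polysome RNA (median -0.125) and 28 in total RNA (median 0.01). Ribosome biogenesis genes lay on the other side, with 31 of 39 above 0 in polysome RNA (median 0.11) and 27 in total RNA (median 0.03). Without DMSO, total replicate 2 the total RNA medians of these lists were -0.04, -0.09 and -0.06. None of these genes passed. In polysome RNA 2, 2 and 0 of the 3 lists' members were lower without overlap, beside 4.19% of all genes. The polysome median of ribosomal proteins ran from -0.22, without IR, polysome replicate 3, to -0.05, without DMSO, polysome replicate 1. Among 35 translation factors the medians were 0.003 and 0.03. EIF1AX, an initiation factor, stood at 13.15, 13.78 and 13.90 on the IR, polysome arrays and at 14.39, 14.10 and 13.93 on the DMSO, polysome arrays, without overlap, a difference of -0.53 (-0.96 to -0.10). In total RNA it differed by 0.22 (-0.21 to 0.65). EIF4E, which binds the cap of messages, differed by -0.30 (-0.52 to -0.08) in polysome RNA, without overlap, and by 0.06 in total RNA.

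Nuclear-retained RNAs, which should be rare on ribosomes, lay lower in the polysome fraction. Of 10 measured, 1 lay above 0 in polysome RNA (median -0.28) and 5 in total RNA (median 0.00). MALAT1, FTX, JPX and CYTOR were lower without overlap in polysome RNA, beside 4.19% of all genes. MALAT1 differed by -0.66 (-1.18 to -0.15) there and by 0.02 (-0.50 to 0.53) in total RNA. The same size of median was seen for histone messages in polysome RNA, and whether the carry-over of other RNA into the fraction bears on them was not tested. Interferon, immediate early, sterol synthesis, unfolded protein response and senescence genes had medians between -0.03 and 0.03 in both fractions, and none of them passed. Without DMSO, total replicate 2 the total RNA median of the immediate early genes was -0.16.

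**Figure D4:**
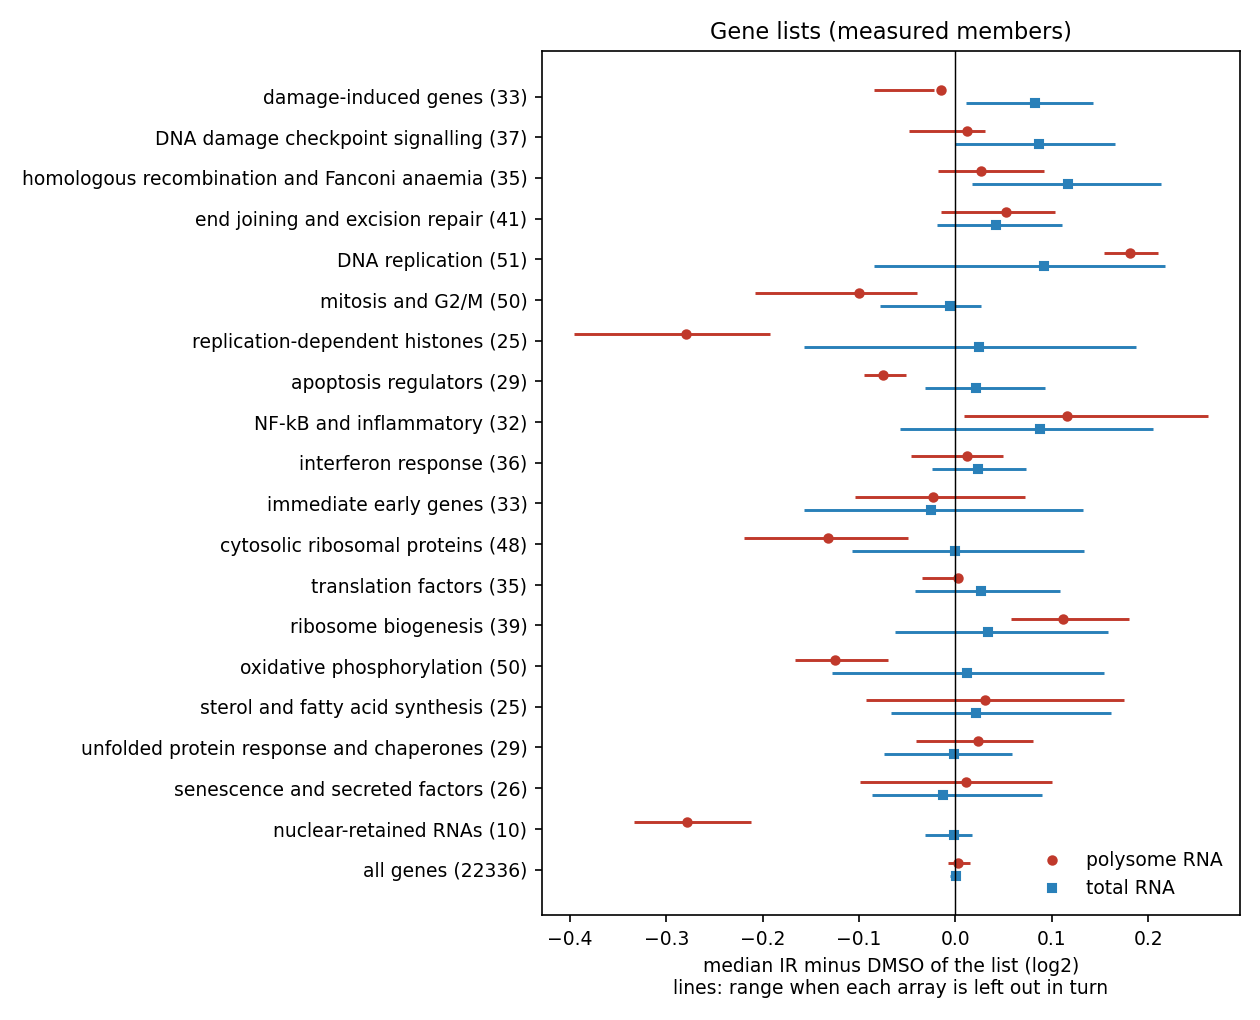
Median IR minus DMSO difference (log2, x axis) of 19 gene lists and of all genes, in polysome RNA (circles) and total RNA (squares); lines give the range of the median when each array of that fraction is left out in turn. Histones and nuclear-retained RNAs (both -0.28) lie farthest below 0 in polysome RNA and DNA replication (0.18) farthest above; no total RNA median lies beyond 0.12.

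In total RNA the genes named by size were others. The largest differences among protein-coding genes above the median level whose groups did not overlap were DEFB124 (-0.56), S100A9 (-0.55), SPTBN1 (-0.49), NOG (-0.40) and RAB20 (-0.34) on the lower side, and MGST3 (0.51), TIGD1 (0.40), GINS3 (0.38), ZBTB41 (0.36) and CGAS (0.35) on the higher. SPTBN1, a spectrin of the membrane skeleton, stood at 11.30, 11.24 and 11.33 on the IR, total arrays and at 11.84, 11.96 and 11.56 on the DMSO, total arrays, and its interval ran from -0.80 to -0.18. In polysome RNA it stood at 11.11, 11.42 and 11.35 with IR and at 11.44, 11.90 and 11.50 with DMSO, also without overlap, a difference of -0.32 (-0.63 to -0.01). S100A9, a calcium-binding inflammatory protein, stood at 6.70, 6.92 and 6.63 on the IR, total arrays and at 7.14, 7.63 and 7.13 on the DMSO, total arrays, and overlapped in polysome RNA. CGAS, the sensor of DNA in the cytosol, stood at 9.10, 9.12 and 8.87 on the IR, total arrays and at 8.58, 8.63 and 8.82 on the DMSO, total arrays, a difference of 0.35 (0.06 to 0.65). In polysome RNA CGAS differed by 0.29 (-0.01 to 0.58), with overlap. GINS3, a subunit of the replicative helicase complex, differed by 0.38 (0.10 to 0.67) in total RNA and by 0.15 in polysome RNA.

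Translational efficiency compared the differences of the fractions. VPS25, which sorts membrane proteins to lysosomes, had the lowest value of the named genes above the median level at -0.91 (-0.39 in polysome RNA and 0.52 in total RNA), followed by H1-1 at -0.89 and VAMP2, a vesicle fusion protein, at -0.82. The highest were DEFB124 at 0.78, GALR2 at 0.70 and BICD2 at 0.67. VPS25 stood at 11.76, 12.09 and 12.06 on the IR, polysome arrays and at 12.67, 12.60 and 11.79 on the DMSO, polysome arrays. The total RNA levels were 10.77, 11.50 and 11.70 with IR and 11.17, 10.01 and 11.22 with DMSO. The groups overlapped in both fractions, and the lowest value belonged to DMSO, total replicate 2. Without that array the translational efficiency of VPS25 was -0.51, that of H1-1 -0.70, that of VAMP2 -0.67 and that of GALR2 0.47, so VPS25 was then no longer the lowest of them. All 25 histone genes had a translational efficiency below 0 (median -0.29), against 11635 of 22336 genes above 0 (median 0.008), and the median was -0.18 without DMSO, total replicate 2.

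The differences in the fractions showed no common pattern. Across all genes the correlation of the differences in polysome RNA with those in total RNA was -0.069, and across the 11168 genes at or above the median level it was -0.008. Without DMSO, total replicate 2 these were -0.003 and -0.022. Genes share array effects and are not replicates, so no p is given. Within a fraction, the difference of one replicate number (IR minus DMSO) was set against that of another across the same 11168 genes. In polysome RNA the correlations were 0.372 for replicates 1 and 2, -0.144 for 1 and 3 and -0.028 for 2 and 3. In total RNA they were -0.508, -0.076 and -0.234, where the numbers did not meet the rule for paired samples. So the differences did not recur across replicates, apart from the 1 pair in polysome RNA.

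Genes that separated in both fractions were few. There were 14 (0.0627%) higher and 23 (0.103%) lower with IR on every array of both fractions. Opposite directions were seen for 46 genes higher in polysome RNA and lower in total RNA, and for 12 the reverse. Protein-coding genes at or above the median level among the 23 included SPTBN1, PLEK2, JPT1, DLX6 and KCNC4. PLEK2, a pleckstrin of the cell cortex, stood at 12.18, 12.12 and 12.13 on the IR, polysome arrays and at 12.33, 12.35 and 12.24 on the DMSO, polysome arrays. In total RNA it stood at 11.49, 11.49 and 11.32 with IR and at 11.60, 11.83 and 11.78 with DMSO. The groups did not overlap in either, and the mean difference over both fractions was -0.24 with an adjusted p near 1. RNF186, a ubiquitin ligase gene with a level below the median of all genes, stood at 4.48, 4.39 and 4.48 on the IR, polysome arrays and at 4.08, 4.05 and 4.2 on the DMSO, polysome arrays. Its total RNA levels were 4.45, 4.45 and 4.24 with IR and 4.22, 4.16 and 4.09 with DMSO, and the mean difference was 0.28.

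**Figure D5:**
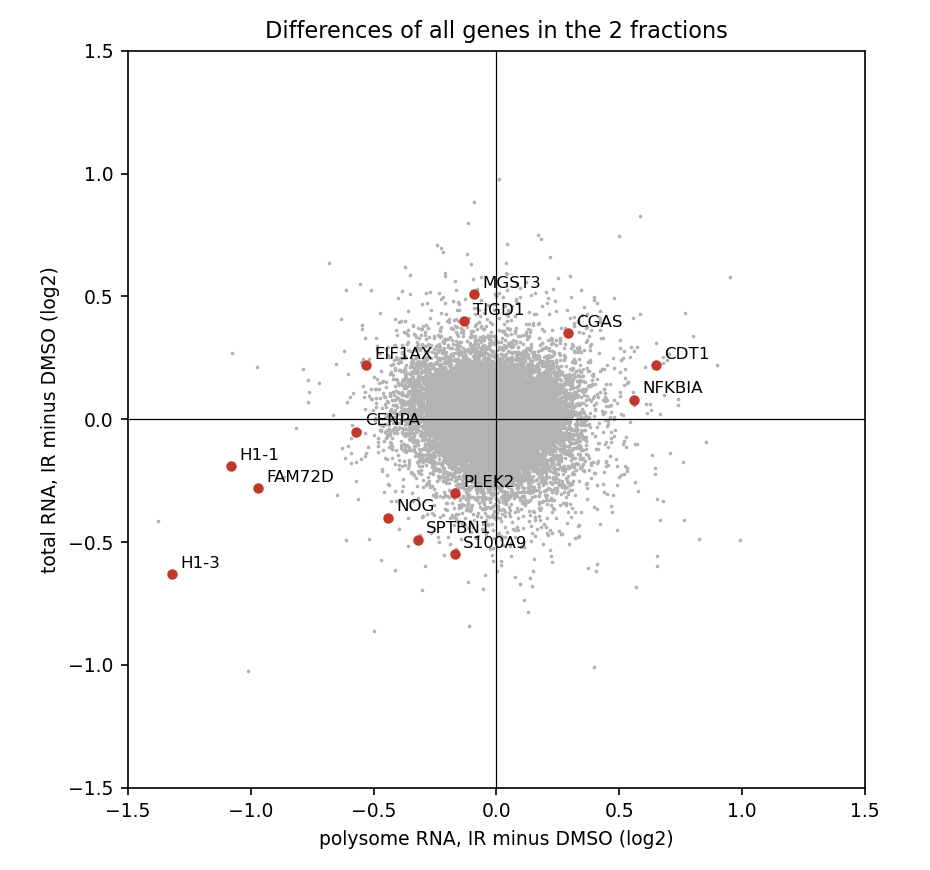
IR minus DMSO difference (log2) of each of 22336 genes in polysome RNA (x axis) against total RNA (y axis); grey points are genes and red points are genes named in the text. The cloud is round (correlation -0.069), and H1-3, lowest of the named genes in polysome RNA at -1.32, lies at -0.63 in total RNA.

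The same IR step was measured in cells with an inhibitor of mTOR, the kinase that couples nutrients to translation, using arrays that share none with the comparison above. RAD001 + IR was set against RAD001 in both fractions, and PP242 + IR against PP242 in polysome RNA. H1-3 differed by -0.98 with RAD001 (95% interval -1.86 to -0.10) and by -0.41 with PP242 (-1.28 to 0.47) in polysome RNA. In total RNA it differed by -0.75 with RAD001 (-1.63 to 0.13). Its mean was lower with IR in these 3 comparisons too, but the groups overlapped in each. The overlap came from replicate 3 without IR, the lowest array of its group each time. On the RAD001 + IR, polysome arrays H1-3 stood at 4.00, 4.27 and 3.57, and on the RAD001, polysome arrays at 5.73, 5.19 and 3.85. Between arrays of the same number, the IR array was the lower throughout these 3 comparisons. H1-1 differed by -0.76, 0.07 and -0.45 in the same order, with intervals that spanned 0. NFKBIA was higher with IR by 0.50 with RAD001 (0.07 to 0.92) and by 0.46 with PP242 (0.04 to 0.89) in polysome RNA. In total RNA it was higher by 0.47 with RAD001 (0.05 to 0.90). Its groups did not overlap in any of these 3 comparisons, and it passed the adjusted threshold in none. Over all genes 898, 686 and 331 of 22336 were higher without overlap in the same order. CDT1 differed by 0.28, 0.32 and 0.27, and CDKN1A by -0.06, 0.20 and 0.04. For both genes the 95% interval spanned 0 in each comparison. Replicate 3 was the lowest array of each group compared for CDT1 and H1-1, and the highest for CDKN1A. The fit did not pair arrays by number, so the intervals of these genes include that shift. Of the 33 damage-induced genes, 19 lay above 0 with RAD001 (median 0.01) and 31 with PP242 (median 0.13) in polysome RNA, and 30 with RAD001 in total RNA (median 0.11). Over all genes 11891, 11817 and 12001 of 22336 lay above 0 in these 3 comparisons.

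Some lists kept their side of 0 and others did not. Mitotic genes had medians of -0.28 with RAD001 and -0.14 with PP242 in polysome RNA and of -0.16 with RAD001 in total RNA, against -0.10 and -0.01 with IR alone in polysome and total RNA. PLK1 differed by -0.66 and -0.15 in polysome RNA and by -0.74 in total RNA with the inhibitors. AURKA, another mitotic kinase, differed by -0.76, -0.18 and -0.53. For both kinases the 95% interval spanned 0 in each comparison. These intervals came from a fit that did not pair arrays by number. Replicate 3 was the lowest array of each group compared for both kinases, so the intervals include that shared shift. AURKA stood at 11.59, 11.44 and 9.86 with RAD001 + IR and at 12.24, 12.14 and 10.81 with RAD001 in polysome RNA. Between arrays of the same number, both kinases were lower with IR throughout the RAD001 comparisons. With PP242 PLK1 was lower too, and AURKA was lower or level. Histone genes had medians of -0.19 with RAD001 and -0.02 with PP242 in polysome RNA and of -0.13 with RAD001 in total RNA. Replication genes had medians of 0.04, 0.09 and 0.26 in that order. The NF-kB list had medians of 0.080, 0.067 and 0.105 in the same order, with 24, 24 and 26 of 32 genes above 0. With IR alone 24 of its genes lay above 0 in polysome RNA and 25 in total RNA. Ribosomal protein genes lay the other way from IR alone: 44 of 48 were above 0 with RAD001 (median 0.19) and 46 with PP242 (median 0.16) in polysome RNA, against 3 of 48 without an inhibitor.

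Whether the IR effect differed between cells with and without an inhibitor was tested as an interaction, and 0 genes (0%) passed in each of the 3 tests (limma over 35 arrays). At an unadjusted p under 0.05 there were 146 genes for RAD001 in polysome RNA, 204 for RAD001 in total RNA and 224 for PP242 in polysome RNA. The median gene's interval reached 0.51 (log2) either side, and 17560 genes (78.6%) had an interval within 2-fold for RAD001 in polysome RNA. For H1-3 the interaction was 0.34 (-0.90 to 1.58) with RAD001 and 0.91 (-0.33 to 2.15) with PP242 in polysome RNA. For NFKBIA it was -0.06 (-0.66 to 0.54) and -0.10 (-0.70 to 0.50). Across the 11168 genes at or above the median level, the IR difference with RAD001 correlated with that without an inhibitor at -0.150 in polysome RNA and at 0.262 in total RNA. The IR difference with PP242 correlated with that without an inhibitor at -0.261 in polysome RNA. The IR differences with RAD001 and with PP242 correlated at 0.430 in polysome RNA. Of the inhibitor arrays 8 stood apart from their groups (replicate 3 of each group and PP242 + IR, total replicate 2), and without those arrays the 4 values were -0.084, 0.335, -0.322 and 0.252.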

How the data were processed

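RNA of 12 arrays in 4 groups of 3 was compared. The authors deposited 1 table of log2 values for 65029 probe sets; the log2 scale was read from the values (1.85 to 19.92), and the sources used here name no background correction or normalization. The labels' protocols describe mouse forelimbs rather than a cell line, so they were left aside. The platform annotation gave 23077 probe sets 1 symbol, 1357 several and 40595 none; each symbol kept its probe set of highest mean over 35 arrays (22336 genes). Probe sets of BTG2 and BBC3 carry no single symbol and were not analysed here.

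Differences were fitted with limma 3.58.1 in R 4.3.3 on the 12 arrays (4 group means, 8 residual and 3.06 prior degrees of freedom), and interactions on all 35 arrays. The 12 arrays were used because the inhibitor arrays widen a shared spread. A gene passed at an adjusted p under 0.05 (Benjamini-Hochberg, all genes). The fits were tested on simulated data. The number of arrays and the spread between them limit the precision.

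Named were the 5 largest differences each way per comparison (protein-coding, at or above the median level, groups without overlap except for translational efficiency), the 2 of lowest p each way, a set of 20 damage and cycle genes (17 measured here), and 2 members each way per list. Members and lists were chosen with earlier results of these data known. The replicate numbers in the titles paired the polysome arrays: deviations of same-numbered arrays correlated at 0.125, 0.335 and 0.213. The main fit did not use this pairing. Alternatives were other array sets, quantile and median normalization, filters, array weights, a replicate block, other probe sets and leaving out each array.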

Additional observations from a re-analysis of the deposited data

How the results depend on the processing

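No count of genes past the adjusted threshold moved from 0 under any alternative run, whether the fit held 35, 27 or 6 arrays, with quantile normalization, median centring, a filter on low values, array weights, another probe set per gene or all probe sets. The smallest adjusted p over the settings was 0.151 in polysome RNA, when only the 6 polysome arrays were fitted, 0.216 in total RNA and 0.468 in translational efficiency, both with array weights, and for the interactions 0.0599 for RAD001 in total RNA without RAD001, total replicate 1. With a replicate block the counts stayed at 0, so the block changed no call. At an unadjusted p under 0.05 the block gave 671 genes in polysome RNA and 461 in total RNA. It gave 624 in translational efficiency and 452 in the mean of both fractions. This block put the same replicate effect on polysome and total arrays. A paired fit of the 6 polysome arrays alone was not run, so the effect of their pairing on the calls is not known. The total RNA numbers do not pair the samples by the rule that every pair correlates above 0.1 (0.0702, 0.0132 and 0.277 over all genes, and 0.0968, 0.144 and 0.556 over genes at or above the median level, where replicates 2 and 3 correlated best with their own number). Leaving out each array in turn gave 0 to 0 genes. At an unadjusted p under 0.05 this gave 411 to 962 genes in polysome RNA and 393 to 790 in total RNA, and over all settings of 1 probe set per gene 180 to 1037 and 161 to 1158, lowest with 35 arrays and the filter on low values and highest with array weights. At an unadjusted p under 0.05 with a difference over 1.5-fold, 37 genes were counted in polysome RNA, 25 in total RNA, 145 in translational efficiency and 7 in the mean of both fractions. These counts rested on single arrays: 135 in polysome RNA without DMSO, polysome replicate 3, and 94 in total RNA without DMSO, total replicate 3, with 100 in total RNA under array weights. The design text's log fold change over 1.5 left 0. With the filter on low values, 15618 genes were tested, and 11668 in polysome RNA and 7327 in translational efficiency had intervals within 1.5-fold, which is 74.7% and 46.9% of the genes tested, against 80.3% and 55.4% of all genes. Of the values for single genes and lists, 6503 kept within 1 SD of the value given and 121 moved by more. No gene was called, so no call could turn; several list medians in total RNA changed sign, such as DNA replication, from 0.09 to -0.08 without DMSO, total replicate 2.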

Other observations

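The genes of lowest unadjusted p were mostly not well-expressed coding genes. Of the 20 lowest in polysome RNA, 7 were protein-coding and 11 lay below the median level of all genes, and in total RNA 8 were protein-coding and 19 lay below it. The lowest belonged to the microRNA gene MIR518C in polysome RNA, with a difference of 0.62, and to the small nucleolar RNA gene SNORD115-48 in total RNA, with a difference of -0.65. In translational efficiency it belonged to TAAR1, a trace amine receptor gene, with a difference of 1.25. TAAR1 stood at 4.37, 4.65 and 4.29 on the IR, polysome arrays and at 3.82, 3.83 and 3.95 on the DMSO, polysome arrays. Its total RNA levels were 4.25, 4.17 and 4.29 with IR and 4.58, 5.39 and 4.79 with DMSO. The groups separated in opposite directions, all levels but 1 lay below the median of all genes, and the adjusted p was 0.9999 (limma).

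The median difference followed the level of the genes in opposite directions in the 2 fractions. From the lowest to the highest quartile of levels it was 0.035, 0.008, -0.037 and -0.017 in polysome RNA, and -0.040, -0.021, 0.024 and 0.043 in total RNA. These shifts are small beside the 95% interval of a single gene.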
